A study of Drosophila melanogaster with 3 samples.

Results

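The 10 genes described here are the heat shock protein genes of *Drosophila melanogaster* Hsp22, Hsp23, Hsp26, Hsp27, Hsp67Ba, Hsp67Bc, Hsp83, Hsc70-4 and Hsp68, together with Hsf, the gene of the heat shock transcription factor, out of 13968 protein-coding genes. They were chosen by name, but with earlier results of these data known, so their counts are not those of an unselected list. Each was described by all summits, the positions of highest signal within a peak, that lie in its span or within 1 kb of either end. The data are a single group of 3 biological replicates, numbered 1 to 3, in which chromatin bound by lozenge (lz) was precipitated from whole prepupae at the white prepupa stage. The animals came from a stable transgenic line carrying lz with GFP at its C-terminus, sexes were pooled, and the antibody was directed against GFP. Untagged or heat-shocked animals were not analysed here, so every value below describes lz-GFP occupancy in 1 condition. The material is the whole animal. A weak or missing peak can come from binding in few cells or from little binding in many, and these cannot be told apart.

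Heat shock proteins are molecular chaperones that keep unfolded proteins from aggregating and help them refold. Their genes are classic targets of Hsf, which binds inverted repeats known as heat shock elements, and many of their promoters are held open by the GAGA factor and carry a paused RNA polymerase before induction. In the fly, the small heat shock genes of the 67B cluster are also switched on without stress during development, by the steroid hormone ecdysone, whose pulse starts metamorphosis at the prepupal stage. Lozenge is a Runx-family transcription factor known for its roles in crystal cells of the blood and in the eye.

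The authors deposited a list of 30000 calls for each replicate, a list of 30000 calls on the pooled replicates, and a thresholded set of 8048 peaks, which are the 8048 strongest pooled calls. No read counts are in these lists, so the depth behind a peak is unknown. Peaks are given by their rank on the authors' signal, with rank 1 the strongest of its list. In the replicates the same number of strongest calls was taken, and a summit was matched when a replicate had one of these within 100 bp. Of all thresholded peaks, 65.0% were matched in all 3 replicates.

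The sequences below show what lay under or near the summits. The first 3 and the Hsp23 sequence end at the base before a transcript start and hold a thresholded summit. The Hsp83 sequence is centred on a summit in an intron. The Hsp68 sequence is the stretch before its start, where no thresholded summit lay. All were read from the RefSeq genome sequence of the dm6 build and are given 5′ to 3′ in the direction of the gene. Capitals mark matches to the heat shock element (GAANNTTC or TTCNNGAA), to GAGAG and to the TATA box (TATAAA) on either strand.
Hsp27: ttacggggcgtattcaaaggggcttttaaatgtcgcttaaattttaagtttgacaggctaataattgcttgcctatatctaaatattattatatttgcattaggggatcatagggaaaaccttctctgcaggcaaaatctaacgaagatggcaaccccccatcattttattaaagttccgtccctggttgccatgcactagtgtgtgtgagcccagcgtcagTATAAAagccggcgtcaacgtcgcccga
Hsp26: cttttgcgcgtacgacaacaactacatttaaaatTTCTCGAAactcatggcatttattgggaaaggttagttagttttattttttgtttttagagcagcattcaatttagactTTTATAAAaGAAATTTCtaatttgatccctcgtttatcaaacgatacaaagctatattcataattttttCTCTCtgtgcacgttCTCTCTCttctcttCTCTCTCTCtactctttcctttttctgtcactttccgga
Hsc70-4: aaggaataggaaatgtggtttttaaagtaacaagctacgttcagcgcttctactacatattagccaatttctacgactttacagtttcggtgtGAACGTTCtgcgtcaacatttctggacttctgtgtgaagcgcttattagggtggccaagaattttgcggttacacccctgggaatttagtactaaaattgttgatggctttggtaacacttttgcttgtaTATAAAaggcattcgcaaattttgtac
Hsp68: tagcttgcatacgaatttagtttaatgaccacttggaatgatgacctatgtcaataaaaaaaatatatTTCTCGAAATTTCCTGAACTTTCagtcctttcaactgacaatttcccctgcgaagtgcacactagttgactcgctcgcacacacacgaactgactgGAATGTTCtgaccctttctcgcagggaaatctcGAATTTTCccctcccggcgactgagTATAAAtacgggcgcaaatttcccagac
Hsp23: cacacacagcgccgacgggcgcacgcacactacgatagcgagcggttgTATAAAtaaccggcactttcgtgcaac
Hsp83 intron: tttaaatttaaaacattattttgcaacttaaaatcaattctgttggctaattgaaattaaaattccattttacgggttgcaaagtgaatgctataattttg
The Hsp27 sequence is chr3L:9383813-9384062 on the plus strand with the summit at its base 100, and the Hsp26 sequence is chr3L:9377428-9377677 on the minus strand with the summit at its base 127. The Hsc70-4 sequence is chr3R:15242437-15242686 on the plus strand with the summit at its base 71. The Hsp68 sequence is chr3R:24057311-24057560 on the minus strand. The Hsp23 sequence is chr3L:9381807-9381881 and the Hsp83 sequence chr3L:3194234-3194334, both on the plus strand with the summit at base 51.

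Of the 10 genes, 9 had a thresholded summit, against 38.1% of all protein-coding genes. The gene without one was Hsf. Among the 8048 strongest calls of replicates 1, 2 and 3, 9, 8 and 10 of the 10 genes had a summit, where all protein-coding genes had 40.5%, 34.6% and 38.1%. The mean over the replicates was 9.0 ± 1.0 genes (SD, n = 3), against 37.7 ± 2.97% of all genes. With thresholded peaks kept only where both remaining replicates matched them, leaving out replicate 1, 2 or 3 kept 5793, 6094 and 5710 peaks and 8, 8 and 7 of the 10 genes, against 29.2%, 32.8% and 29.6% of all genes. The loss was Hsp68 without replicate 1, Hsp67Bc without replicate 2 and both without replicate 3. The heat shock genes are short, with spans of 0.88 to 4.33 kb and a median of 1.88 kb, against a median of 2.16 kb over all genes. Among the 7870 protein-coding genes with a span in the same range, 34.1% had a thresholded summit. When only the 4024 strongest thresholded peaks were kept, 6 of the 10 genes still had one (Hsp22, Hsp26, Hsp27, Hsp67Ba, Hsp83 and Hsc70-4), against 24.8% of all genes. At the level of all 30000 pooled calls all 10 had one, against 62.3%.

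These 9 genes shared 10 distinct thresholded summits, because 1 summit lay within reach of both Hsp26 and Hsp67Ba while Hsp83 had 3. Replicates 1, 2 and 3 had 10, 9 and 14 distinct summits at the 10 genes, a mean of 11.0 ± 2.65 (SD, n = 3). Of the 10 summits, 3 lay within the span of a heat shock gene (at Hsp22 and 2 at Hsp83), 5 before the gene and 2 past its end. In the gene span alone, only Hsp22 and Hsp83 kept a summit, 2 of 10 genes against 15.9% of all genes. A thresholded summit lay within 500 bp of a transcript start of the gene's own at 6 of the 10 (Hsp22, Hsp23, Hsp26, Hsp27, Hsp83 and Hsc70-4), against 26.9% of all genes. Of the 10 summits, 9 were within 500 bp of some transcript start, against 42.6% of all thresholded summits. The 10 were taken by lying in or within 1 kb of short genes, so nearness to a start follows in part from that rule. The share of all summits has no such limit, so the 2 shares are not like for like. For 3 of the 10, at Hsp83, Hsp67Bc and Hsp68, the nearest start belonged to a neighbouring gene.

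**Figure D1:**
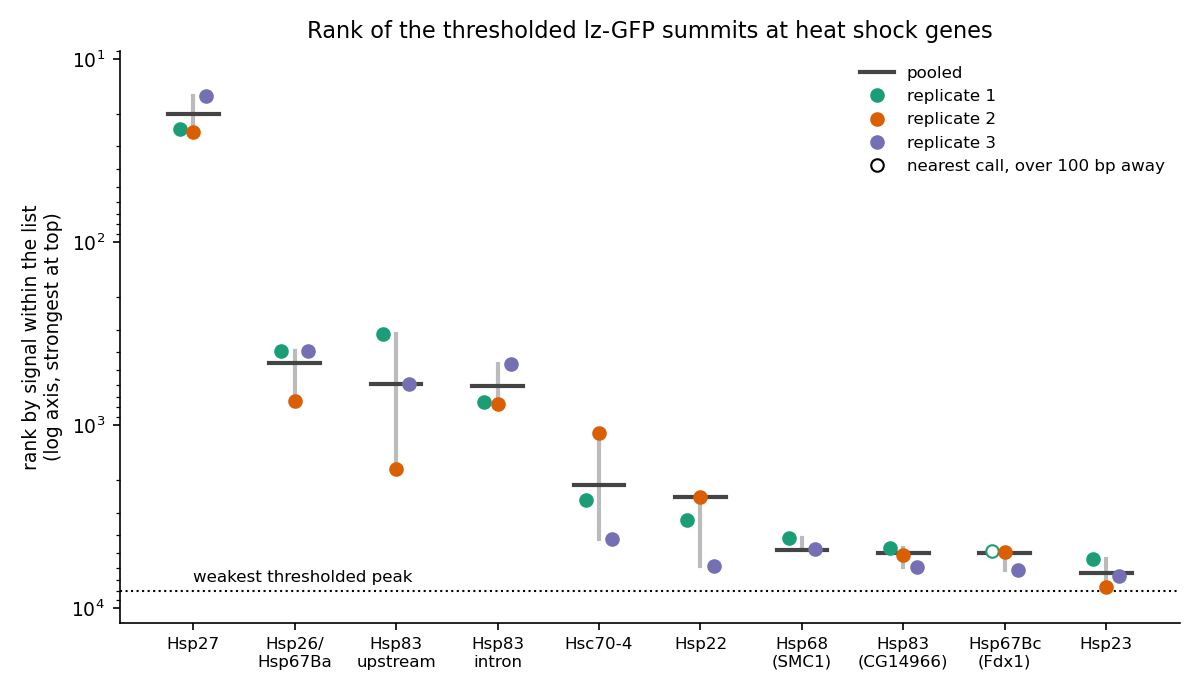
Rank of each of the 10 thresholded summits at heat shock genes within the pooled list (bar) and within each replicate (points) on a log axis with the strongest at the top; the grey line spans the replicates, and the dotted line is the weakest thresholded peak, rank 8048. The Hsp27 summit ranks 16 to 25 in the replicates, above all others, whose best replicate rank is 317; the open point is a replicate 1 call just over 100 bp from the pooled Hsp67Bc summit.

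The strongest summit was that of Hsp27, a small heat shock protein of the nucleus. It lay at chr3L:9383912, 151 bp upstream of the Hsp27 start and between genes, in a peak from 9383666 to 9384133. Its pooled rank was 20 of 8048, and its ranks were 24, 25 and 16 in replicates 1, 2 and 3 (mean 21.7 ± 4.9, SD, n = 3). All 3 replicates thus placed it among their strongest calls. Their summits were 3, -5 and 0 bp from the pooled one. Of all protein-coding genes, 31 had a thresholded summit of that rank or higher in reach. Among 6607 genes compared, those with replicate ranks nearest to those of Hsp27 were Fbw5 and CG9147, which share a summit of ranks 23, 24 and 22 at a distance of 0.141 on the log10 rank scale. CG8320 and Pex11ab followed at 0.24 with a shared summit of ranks 27, 15 and 19.

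Hsp26, another small heat shock protein of the cluster, had the next strongest summit at chr3L:9377551, 124 bp upstream of its start at 9377427. Another Hsp26 start, at 9377375, lies further from the summit. This summit ranked 460 in the pooled list and 395, 737 and 395 in replicates 1, 2 and 3. The replicate summits were 14, 3 and 4 bp away. The summit was also the only thresholded one in reach of Hsp67Ba, whose transcription runs towards it and ends between the summit and the Hsp67Ba start. At the start of Hsp67Ba itself, replicate 1 listed weak calls of ranks 18027, 25 bp upstream, and 27712, further upstream. None was listed within 500 bp of that start in the pooled list or the other replicates. The summit therefore belongs to Hsp67Ba by the 1-kb reach alone.

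Hsp22, a small heat shock protein of mitochondria, had a summit at chr3L:9373576 of pooled rank 2464. It lay 421 bp upstream of the start of the shorter Hsp22 transcript, within the 5′ UTR of the longer one and the 3′ UTR of the overlapping gene CG4456 (Hsp67Bb). Its matched replicate ranks were 3296, 2479 and 5879. In replicate 3 a second and stronger call of rank 2418 lay at 9373444, so that replicate had a pair of summits there. Hsp23, a cytosolic small heat shock protein, had the weakest of the 10 summits. It lay at chr3L:9381857, 25 bp upstream of the start, ranked 6443 in the pooled list and 5403, 7676 and 6622 in the replicates. These ranks are near the weak end of the thresholded set, and in replicate 2 the summit was 49 bp from the pooled one, on the other side of the start.

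Hsp67Bc, a small heat shock protein that takes part in selective autophagy, had a summit at chr3L:9371064 of pooled rank 4982. It lay 1433 bp from the Hsp67Bc start, in an intron of Fdx1 and 6 bp upstream of a start of that gene. Replicates 2 and 3 had matching summits of ranks 4945 and 6143, and the nearest call of replicate 1, of rank 4877, was 102 bp away and so not matched. Near the start of Hsp67Bc the strongest pooled call ranked 16910, 251 bp upstream. In the replicates the strongest there ranked 11902 in replicate 1 and 13052 in replicate 3, and none was listed in replicate 2. The start of Hsp67Bc thus had only calls well below the thresholded set.

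**Figure D2:**
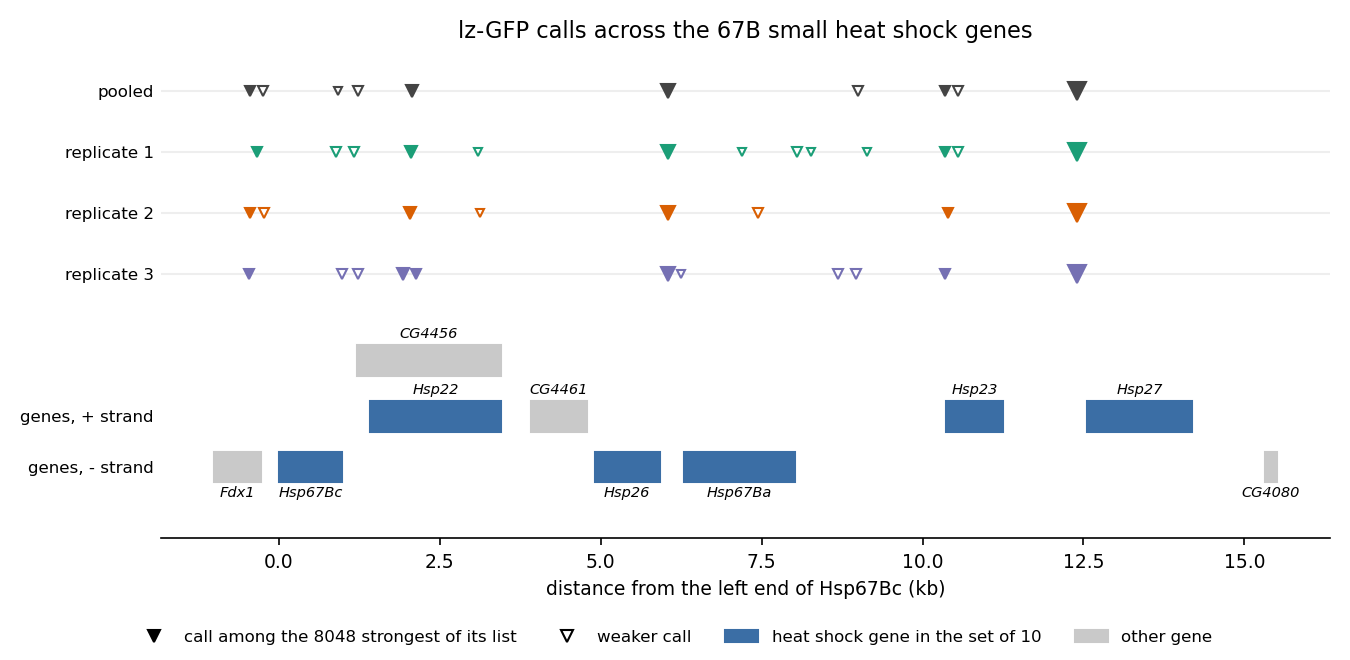
Calls in the pooled list and the 3 replicates (rows) across the 67B small heat shock genes, by distance in kb from the left end of Hsp67Bc; filled triangles are among the 8048 strongest calls of their list, open ones are weaker, and larger triangles rank higher. Each of the 5 filled pooled triangles has a filled one at or near its place in every replicate, and replicate 3 has 6, with a pair at Hsp22.

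Together, the 6 small heat shock genes and 1 kb to each side (3L, 9370511 to 9386694) held 5 thresholded summits in 16.2 kb. Replicates 1, 2 and 3 had 5, 5 and 6 among their 8048 strongest calls. The density was 0.309 summits per kb in the cluster and 0.0611 per kb over chromosome arm 3L, a ratio of 5.06. Of 1737 windows of the same length along that arm, 72 held as many summits or more, 4.15%. Neither comparison was matched for the number of genes or transcript starts, and both include gene-poor parts of the arm. The 5 summits spread over 12.8 kb, 1 near each of Fdx1, Hsp22, Hsp26, Hsp23 and Hsp27, and their pooled ranks ran from 20 to 6443. The genes are neighbours, so their peaks are not independent of each other. CG4461, another small heat shock gene between Hsp22 and Hsp26, had no thresholded summit in reach.

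Hsp83 encodes the fly Hsp90, a chaperone of kinases and hormone receptors that is abundant without stress. It had 3 thresholded summits. The first, at chr3L:3193095, lay 121 bp upstream of the start at 3193216 and within the 5′ UTR of a longer transcript. Its pooled rank was 599, and its replicate ranks were 317, 1738 and 593. The second, at chr3L:3194284, lay in an intron 1068 bp downstream of the start, with a pooled rank of 607 and replicate ranks of 744, 769 and 463. Replicate 1 ranked the upstream summit higher, and replicates 2 and 3 the intronic one, so their order lay within the spread of the replicates. Both positions differed little, with replicate summits -1, -1 and 6 bp from the pooled upstream summit and 5, 12 and 8 bp from the pooled intronic one. The third, at chr3L:3197682, was weaker, with a pooled rank of 4964 and replicate ranks of 4710, 5128 and 5933. It lay past the end of Hsp83, 4466 bp from its start but 51 bp upstream of the start of CG14966.

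Of the 9 summits with a call near them in all 3 replicates, the upstream Hsp83 summit had the largest ratio between its replicate ranks. The SMC1 summit at Hsp68 has no such ratio, as replicate 2 listed no call there. At the upstream Hsp83 summit the largest replicate rank was 5.48 times the smallest. Over the 7482 thresholded peaks with a call within 200 bp in all 3 whole replicate lists, the median ratio was 1.56, and 1.52% had a ratio as large. The next largest ratio was 3.8 at Hsc70-4, which 3.62% of these peaks reached. At Hsp83 replicate 2 gave the low rank, and at Hsc70-4 replicate 2 gave the high one, so the difference did not run the same way at both genes. The ratio was 1.56 at Hsp27 and 1.66 at the intronic Hsp83 summit.

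Hsc70-4, the constitutive cytosolic Hsp70 that also uncoats clathrin vesicles, had a summit at chr3R:15242507, 180 bp upstream of its first start. Its pooled rank was 2134, and it ranked 2553, 1097 and 4173 in replicates 1, 2 and 3. The replicate summits were 11, 30 and 6 bp away. A weaker call stood just outside the thresholded set at chr3R:15243625, in the 5′ part of the gene, with a pooled rank of 8800. The nearest calls there ranked 10406 in replicate 1, 24517 in replicate 2 and 6333 in replicate 3, so only replicate 3 placed it among its 8048 strongest. The neighbouring gene tefu also lay within 1 kb of the Hsc70-4 summit.

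**Figure D3:**
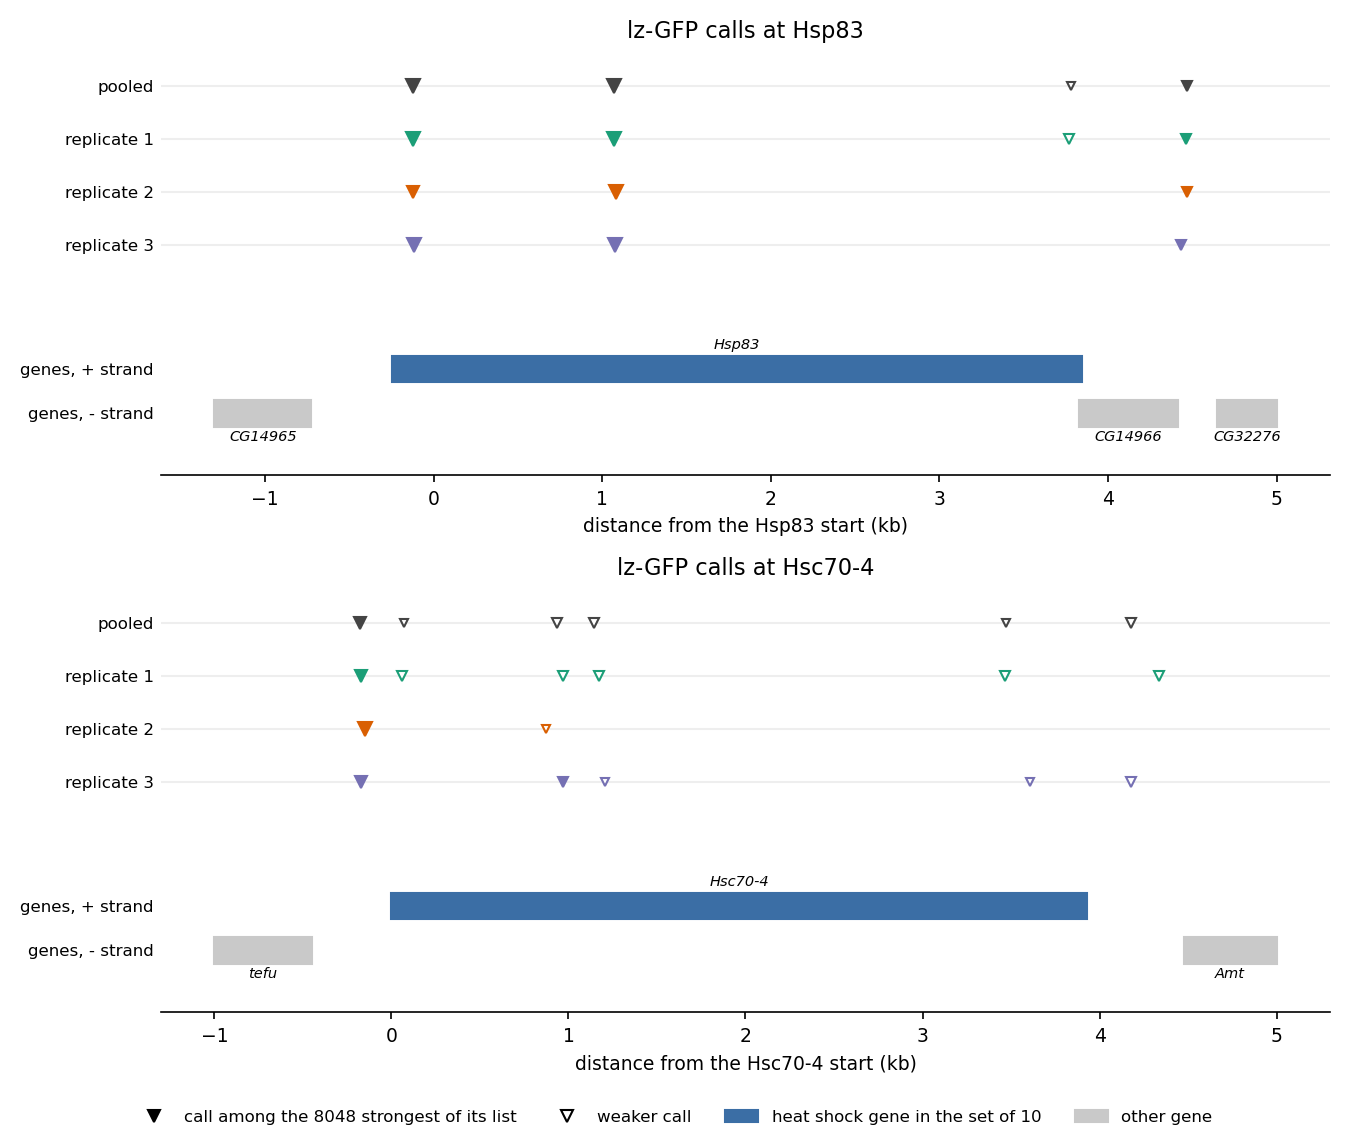
Calls in the pooled list and the 3 replicates (rows) at Hsp83 (top) and Hsc70-4 (bottom), by distance in kb from the start used for each gene; filled triangles are among the 8048 strongest calls of their list, open ones are weaker, and larger triangles rank higher. Hsp83 has 3 filled triangles in every row, and Hsc70-4 has 1 in every row and a second in replicate 3.

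Hsp68, the stress-inducible member of the Hsp70 family outside the Hsp70 gene clusters, was counted through a summit at chr3R:24058247 of pooled rank 4825. That summit lay 937 bp upstream of the Hsp68 start but 40 bp upstream of the start of SMC1, the divergent neighbour that encodes a cohesin subunit. It ranked 4156 in replicate 1 and 4755 in replicate 3, and replicate 2 listed no call in reach of Hsp68 among its 30000. Within 500 bp of the Hsp68 start itself, the only call in any list ranked 13590, in replicate 3. Hsp68 therefore had no thresholded summit of its own start.

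By pooled rank the order of the summits was Hsp27, Hsp26, the upstream and intronic summits of Hsp83, Hsc70-4, Hsp22, the SMC1 summit at Hsp68, the CG14966 summit at Hsp83, the Fdx1 summit at Hsp67Bc and Hsp23. Hsp27 stood apart, with no overlap of its replicate ranks with those of any other summit. The replicate ranks of every other pair of neighbours in this order overlapped, except those of the intronic Hsp83 summit (463 to 769) and Hsc70-4 (1097 to 4173).

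Heat shock elements were counted under the summits and around the transcript starts of the genes. Within 50 bp of the summit, a heat shock element stood at 2 of the 10 summits, those of Hsp26 and Hsc70-4, against 5.84% of the windows of all 8048 thresholded summits. At Hsp26 the element was centred 0.5 bp from the summit, and at Hsc70-4 26.5 bp from it towards the gene. Within 100 bp, 3 of the 10 summits had an element, the upstream Hsp83 summit being the third, against 11.1% of all summits. In the windows from 250 bp before to 50 bp after a transcript start, 10 of the 18 windows of the 10 genes held an element, against 15.9% of 19607 windows of protein-coding genes. By gene these were 7 of the 10 (Hsp22, Hsp23, Hsp26, Hsp67Bc, Hsp83, Hsc70-4 and Hsp68), against 20.0% of 13945 genes. Windows of 1 gene overlap, so they share sequence. The element with 3 alternating units was found in these windows at Hsc70-4 and Hsp68, against 0.567% of genes. At Hsc70-4 it lay in windows of later starts, 270 bp downstream of the first start and so within the gene. Hsp23 had such an element 399 bp upstream of its start, outside the window. The 3-unit element was found at 0 of the 10 summits, against 0.211% of all summit windows.

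The gene with the most elements before a start and the gene with the strongest summit were not the same. Hsp68 had 6 overlapping or separate matches before its start, centred between 178.5 and 49.5 bp upstream, and no thresholded summit there. Hsp27 had the strongest summit and no match in the same window, as its sequence above shows, and its nearest element was centred 334.5 bp upstream, beyond the summit. Hsp67Bc had 1 match, 115.5 bp upstream, and no thresholded summit at its start. Neither the number of matches nor a missing match says whether Hsf was bound.

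GAGAG, the core of the GAGA factor element, stood within 50 bp of 0 of the 10 summits, against 9.0% of all summits, and within 100 bp of 2 of the 10, against 20.8%. In the windows at the starts it was found at 4 of the 10 genes (Hsp22, Hsp23, Hsp26 and Hsc70-4), against 36.4% of genes, a share close to that of all genes. At Hsp26 the GAGAG run lies between the summit and the start, as the capitals of its sequence show. The TATA box letters were found in these windows at 8 of the 10 genes, against 51.3% of genes, and in 2 of the 10 summit windows (Hsp26 and Hsp23), against 21.5%. At Hsp23 the pooled summit lay 0.5 bp from the centre of the TATA box. This was the weakest of the 10 summits, and the replicate summits were -1, 49 and -3 bp from it. Its position is thus not known to the base.

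**Figure D4:**
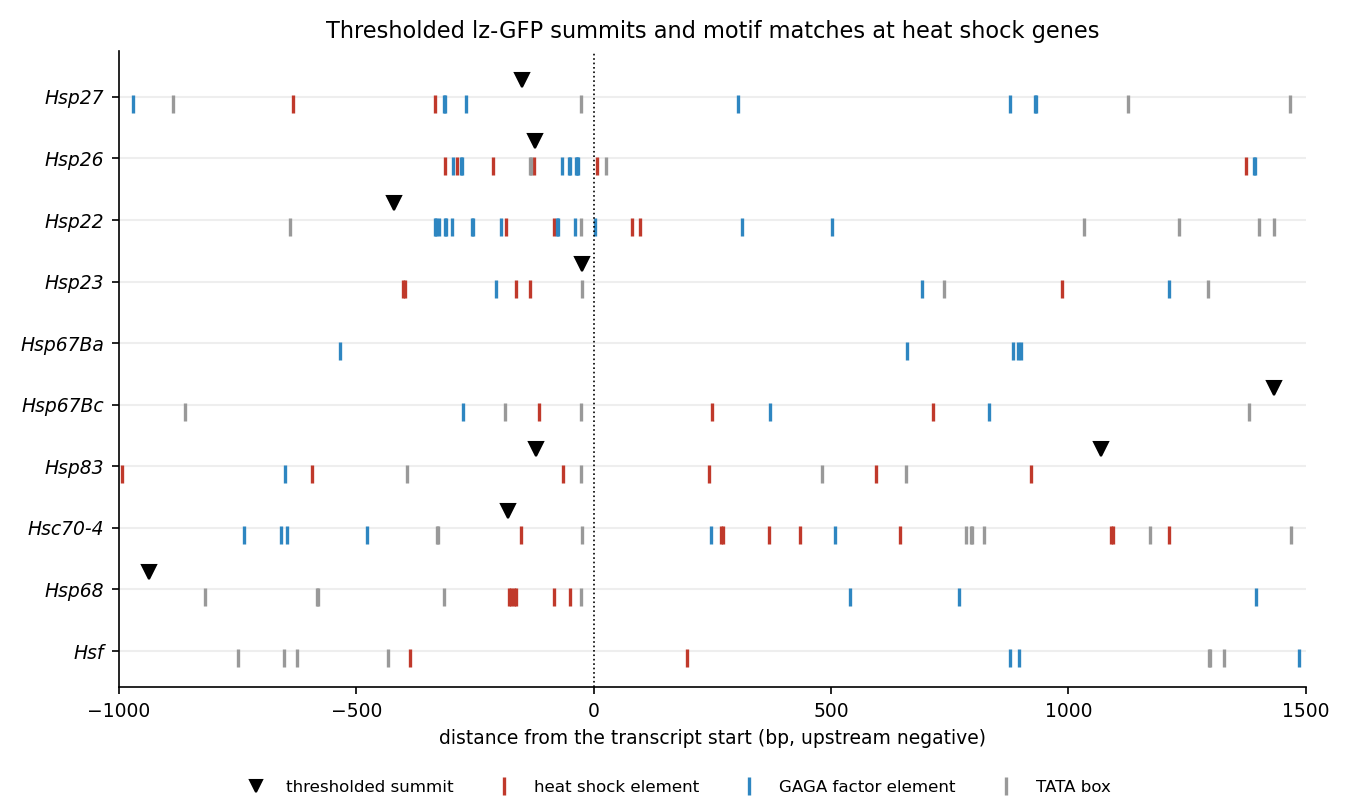
Thresholded lz-GFP summits (triangles) and matches to the heat shock element, the GAGA factor element and the TATA box (ticks) by distance in bp from the start used for each of the 10 genes. The map runs from 1000 bp upstream to 1500 bp downstream of each start. The CG14966 summit at Hsp83 and the summit counted to Hsp67Ba lie outside it and are not drawn there. Hsp68 has 6 heat shock elements close to its start with its only summit 937 bp upstream, and Hsp27 has its summit 151 bp upstream with no heat shock element between summit and start.

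The consensus recognised by Runx factors such as lz was searched as AACCACA, in the related form AACCGCA, as the variant GACCACA and in the form GACCGCA. It was found within 50 bp of 0 of the 10 summits, against 2.68% of all summits. Within 100 bp it was found at 1, that of Hsc70-4, against 6.27%. The ecdysone receptor palindrome was found in 0 of the 10 summit windows and in 0 of the 18 windows at starts, against 0.0249% of all summits and 0.0663% of all start windows. By this search the palindrome is so rare that 0 of 10 and 0 of 18 say little about these windows. TATCGATA, the DRE of replication-related promoters, was found at the start of Hsp83, against 10.2% of genes, and GGTCACACT, the M1BP motif, at none, against 6.78%. CGATAT, a BEAF-32 insulator motif, was found at Hsp23 and Hsp83, against 22.2% of genes, and near 0 of the 10 summits, against 5.65%. These letters cover a few forms of each motif, and a window without them draws nothing about the factor. The windows within 50 bp of the summits had a median of 35.7% G and C (23.8 to 54.5%), against a median of 32.7% over all thresholded summits. The Hsp26 and intronic Hsp83 windows were at the low end and the Hsp23 window at the high end.

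Hsf, which encodes the transcription factor of the heat shock response, had no thresholded summit in its span (2R, 18130303 to 18134634) or 1 kb to either side. The pooled list held 4 weaker calls there, of ranks 9317, 14256, 15289 and 21594, and the highest lay 43 bp upstream of the start of Pcl, the neighbouring Polycomb-group gene. In the authors' −log10 q-value column these 4 calls had 3.04, 1.3, 1.07 and 0.38, against 4.22 for every thresholded peak. Replicate 3 placed 2 calls among its 8048 strongest, of ranks 6717 and 7399, the second of them 233 bp downstream of the Hsf start. The best call of replicate 1 ranked 10855, and replicate 2 listed none. The replicates therefore differ on Hsf.

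Other chaperone genes were counted in 5 lists of 45 genes in all, of which 22 (48.9%) had a thresholded summit, against 38.1% of all protein-coding genes. In replicates 1, 2 and 3 the counts were 22, 18 and 24 of 45, against 40.5%, 34.6% and 38.1% of all genes. With peaks kept only where both remaining replicates matched them, the counts without replicates 1, 2 and 3 were 13, 16 and 14 of 45. All protein-coding genes stood at 29.2%, 32.8% and 29.6% by the same rule, near the shares of these lists. Over all 45 genes, the higher share in the thresholded set was thus not kept among matched peaks. The 45 include 6 near-identical Hsp70 copies without any pooled call, whose lack of calls cannot be read, as given below. Shares of matched peaks without these copies are not given here. The summit of 1 of these genes, CG4456, is the Hsp22 summit described above.

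Among cochaperones of Hsp70, which recruit substrates or drive its cycle, 7 of 9 had a thresholded summit, against 38.1% of all genes. In replicates 1, 2 and 3 the counts were 6, 7 and 7. All 7 had some thresholded summit within 500 bp of an own start. The strongest summits were at mrj (rank 624, 664 bp upstream of its nearest start), Tpr2 (rank 823, 1237 bp downstream) and DnaJ-H (rank 1490, 182 bp upstream), all of them genes of DnaJ-domain proteins. At mrj and Tpr2 the summits near a start were therefore weaker ones, of 2 and 6 thresholded summits in reach. Among the other members of the Hsp90 family and its cochaperones 5 of 7 had one, and 6, 4 and 7 in replicates 1, 2 and 3. The strongest in reach of Stip1, the Hop-type adaptor between Hsp70 and Hsp90, ranked 810 but lay 64 bp upstream of Pi3K21B. The Gp93 summit (rank 3123) lay 119 bp upstream of the start of that endoplasmic reticulum Hsp90, and the Trap1 summit (rank 3139) lay 129 bp upstream of Vha16-1. Among chaperonins 7 of 12 had one, and 6, 4 and 6 in replicates 1, 2 and 3. The replicate 2 count is near the 34.6% of all genes in that replicate. The strongest were at CCT8 (rank 1629) and CCT3 (rank 2474), subunits of the cytosolic ring, though the nearest starts were those of CG30349 and CG10324, and at the mitochondrial Hsp60A (rank 4474).

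Of 11 other Hsp70 family genes 2 had one, the mitochondrial Hsc70-5 (rank 826, 5 bp downstream of its start) and the nucleotide exchange factor Hsp110 (rank 5875, 2 bp downstream). In replicates 1, 2 and 3 the counts were 3, 1 and 3 of 11, and Hsp110 had 0 summits in replicate 2. Of 6 other small heat shock genes 1 had one, against 38.1% of all genes, and 1, 2 and 1 in replicates 1, 2 and 3. The 6 stress-inducible genes Hsp70Aa, Hsp70Ab, Hsp70Ba, Hsp70Bb, Hsp70Bbb and Hsp70Bc had 0 thresholded summits and 0 pooled calls of any rank in reach. These copies are near identical, and how the authors handled reads that map to several places is not given in the sources used here, so their lack of calls cannot be read as a lack of binding. Without these 6 copies, 2 of 5 other Hsp70 family genes (40.0%) and 22 of 39 other chaperone genes (56.4%) had a summit, against 38.1% of all genes. These shares are of the thresholded set, without the matching in replicates.

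**Figure D5:**
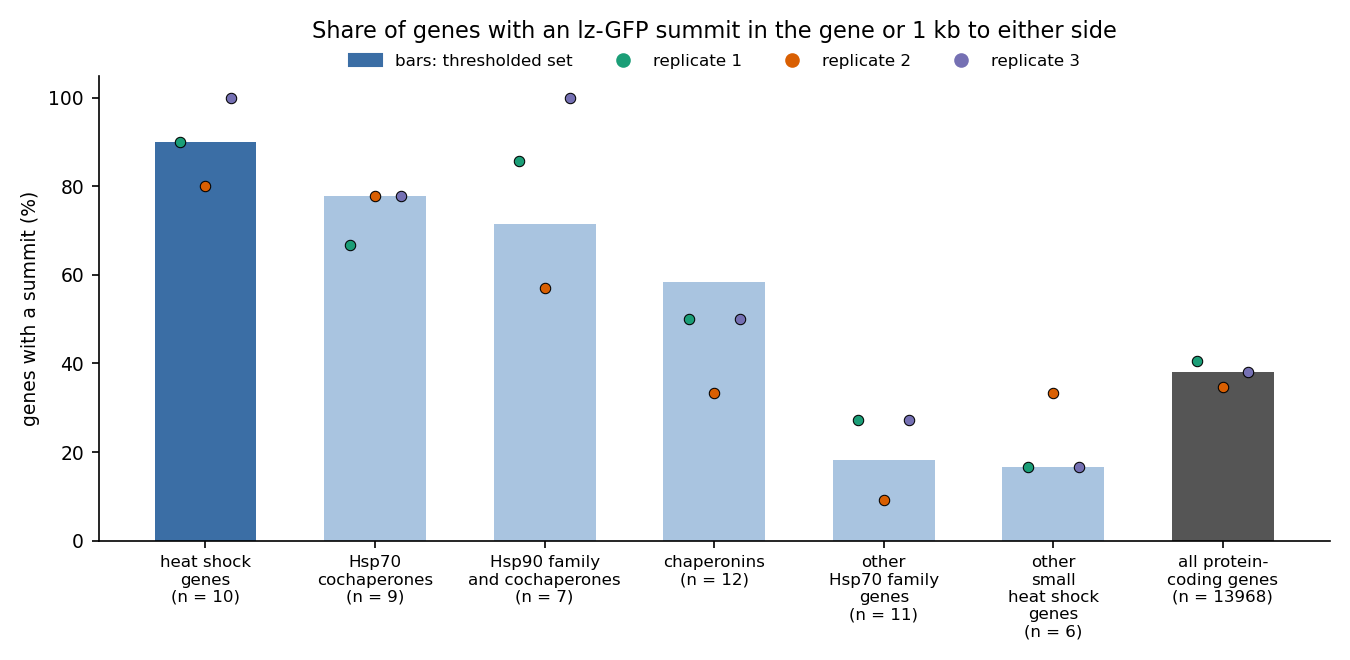
Share of genes (%) with a summit in the gene or 1 kb to either side, for the 10 heat shock genes, 5 lists of other chaperone genes and all 13968 protein-coding genes; bars are the thresholded set and points are the 8048 strongest calls of each replicate. The heat shock genes stand at 90.0% against 38.1% for all genes, and the other Hsp70 family and other small heat shock genes stand at 18.2% and 16.7%; without the 6 near-identical Hsp70 copies, the other Hsp70 family genes stand at 40.0%.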

How the data were processed

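Binding of lz-GFP was measured by ChIP-seq in 3 biological replicates of whole white prepupae, all of 1 group. Replicate numbers come from the labels. The peak lists are as the authors deposited them on the dm6 build, 30000 calls per replicate, 30000 pooled, and 8048 thresholded by the irreproducible discovery rate, per the file lists, with 1 control alignment that was not analysed here. The aligner, the peak caller and the reproducibility level are steps not given in the sources used here. Per-peak signal is the authors' own value, with a scale particular to each list, and gave the ranks. The authors' −log10 q-values stood at 4.22 for all thresholded peaks. The dm3 lists were not used here.

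Gene models are from Ensembl release 115 and sequences from the RefSeq genome of the same build. Summits in the span of a gene or within 1 kb of it were counted to that gene. Replicates were cut to their 8048 strongest calls. Motifs were searched on both strands in the 50 bp to either side of summits and from 250 bp before to 50 bp after each distinct transcript start. Shares over all genes, summits or start windows stand in for a test, as there is no second condition. The members and the 5 lists were chosen with earlier results of these data known. Named genes are the 10 members, up to 3 genes per list with the strongest summits, genes sharing a member's summit, and the genes nearest to Hsp27 in replicate ranks, where CG8320 and Pex11ab tied. CG4461, Pcl and the Hsp70 copies without a peak were named after their values were seen. Of 45 list symbols, 3 needed a synonym and 0 had no match. Gene assignment, matching and motif search were tested on simulated data. Alternatives covered the reach, the number of peaks, each replicate alone or left out, the matching distance, the promoter window, the motif window and the number of element units. Coordinates are 1-based. Python 3.11.15, numpy 2.4.6, pandas 2.3.3 and matplotlib 3.10.9 were used.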

Additional observations from a re-analysis of the deposited data

How the results depend on the processing

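With no sequence added to the gene span, 2 heat shock genes, 3 distinct summits and 9 other chaperone genes had a thresholded summit, against 9, 10 and 22 with 1 kb added. In the gene span alone 15.9% of all genes had one. With only the 4024 strongest thresholded peaks the summits numbered 6 and the other chaperone genes 12 of 45. That share of the other chaperone genes, with the 6 near-identical Hsp70 copies counted among the 45, is near the 24.8% of all genes. Adding 500 bp or 5 kb gave 8 and 9 heat shock genes, and the share of all genes was not computed there. Keeping only peaks matched in the other replicates when 1 was left out gave 7 to 8 heat shock genes and 8 to 9 summits. It gave 13 to 16 of 45 other chaperone genes, again with the copies counted, near the 29.2% to 32.8% of all genes. The summits matched numbered 8 to 9. Hsp67Bc lost its summit without replicate 2 or 3, and Hsp68 without replicate 1 or 3. The heat shock element of 3 units was found at 0 summits, against 2 for the element of 2 units. The longer form contains the shorter one, so its count could not be higher. It stood in 0.211% of all summit windows, so 0 of 10 says little about these summits. Matching within 50 or 200 bp gave 7 and 9 summits matched in all 3 replicates, against 8. Summits within 200 or 1000 bp of a start numbered 8 and 9, against 9 within 500 bp. The shares of all thresholded summits at these other distances are not given here, so these counts have no background beside them. The lists carry no read counts, so depth sets an unknown limit on the weak calls at Hsf, Hsp67Ba and Hsp68.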
